A study of Mus musculus with 10 samples.

Results

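The genes described here are 33 genes of fatty acid oxidation and ketone body metabolism in mouse liver, taken from the count table by their symbols. All 33 were found among the 55487 genes of the count table, and all 33 passed the filter on low counts that left 15894 genes for testing. By place of action they were 17 mitochondrial enzymes, 6 peroxisomal genes, 4 acyl-CoA thioesterases, 2 ketone body dehydrogenases and 4 genes that respond to fasting and to PPARA. The livers came from mice of 22 months, labelled as strain C57B/6J, housed together and kept on chow without any other treatment. The 5 control livers (Flox) carried floxed Arg2 alleles, written Arg2fl/fl, and the 5 compared livers (LKO) came from littermates, written Arg2LKO, in which Arg2 was removed from hepatocytes alone. Arg2 encodes the mitochondrial arginase. The sources used here name neither the Cre line behind the deletion nor the sex of the mice.

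Liver burns fatty acids in mitochondria and peroxisomes. A fatty acid is joined to coenzyme A, carried into the mitochondrion as a carnitine ester, and shortened in repeated turns of dehydrogenation, hydration, a further dehydrogenation and thiolysis. Peroxisomes shorten very long and branched chains first. During fasting the acetyl-CoA that results is turned into ketone bodies for export, and the nuclear receptor PPARA, paired with RXR, switches on many of the genes involved.

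Total counts per library were 43331354 to 54951415, and 21937 to 23811 genes had a count. All 14 hepatocyte markers listed passed the filter, and their summed level was 67784 to 137280 CPM (counts scaled to library size with TMM factors, the scale of all levels below) in Flox and 142885 to 170599 CPM in LKO. Arg2 itself had 9 counts over the 5 Flox livers and 10 over the 5 LKO livers, with 6 of 10 libraries at 0 and at most 6 counts in any library. It did not pass the filter, so these counts do not check the deletion. The labels do not state that each library came from a separate mouse, so p-values measure only the spread between these libraries, part of which may be technical. The measured material was whole liver, in which fewer cells of a type and less RNA per cell cannot be told apart.

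No member reached an adjusted p under 0.05 between LKO and Flox (edgeR quasi-likelihood test, Benjamini-Hochberg over all genes tested, adjusted p 0.652 to 0.984). Over all genes tested the share past that threshold was 0%. At an unadjusted p under 0.05 there were 2 members, Bdh2 and Etfa, both with higher levels in LKO, against 7.51% of all genes in either direction, 3.17% higher and 4.33% lower. The 2 groups did not overlap for 1 member, Bdh2, with every LKO liver above every Flox liver. Of all genes tested, 0.906% had groups that did not overlap, 0.535% with LKO above and 0.371% with LKO below. By DESeq2 on the same genes, 1 member passed an adjusted p of 0.05, again Bdh2. The share was 0.144% over the 6953 genes to which DESeq2 gave an adjusted p. Acot2, Acot3, Fgf21 and Pdk4 were not among those genes. By limma-voom no member passed.

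The log2 fold change was smaller than its SE for 27 members and exceeded it for 6, which were Acsl1, Etfa, Ehhadh, Acaa1a, Bdh2 and Ucp2. The median log2 fold change was 0.06 over the members and -0.01 over all genes tested. Mean levels were higher in LKO for 24 members and lower for 9, where 48.4% of all genes were higher. That count rested on single libraries: it was 14 without Flox 4, 15 without LKO 5 and 16 without LKO 1. By place, the median was 0.05 for the mitochondrial enzymes (12 of 17 higher), 0.08 for the peroxisomal genes (4 of 6 higher), 0.42 for the thioesterases (4 of 4 higher), 0.34 for the ketone body dehydrogenases (2 of 2 higher) and -0.02 for the regulators (2 of 4 higher). The 95% confidence interval lay within a 2-fold change in either direction for 23 members. It reached past a 2-fold change for Ehhadh, Acaa1b, Acot1, Acot2, Acot3, Acot4, Fgf21, Pdk4, Ucp2 and Vnn1.

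**Figure D1:**
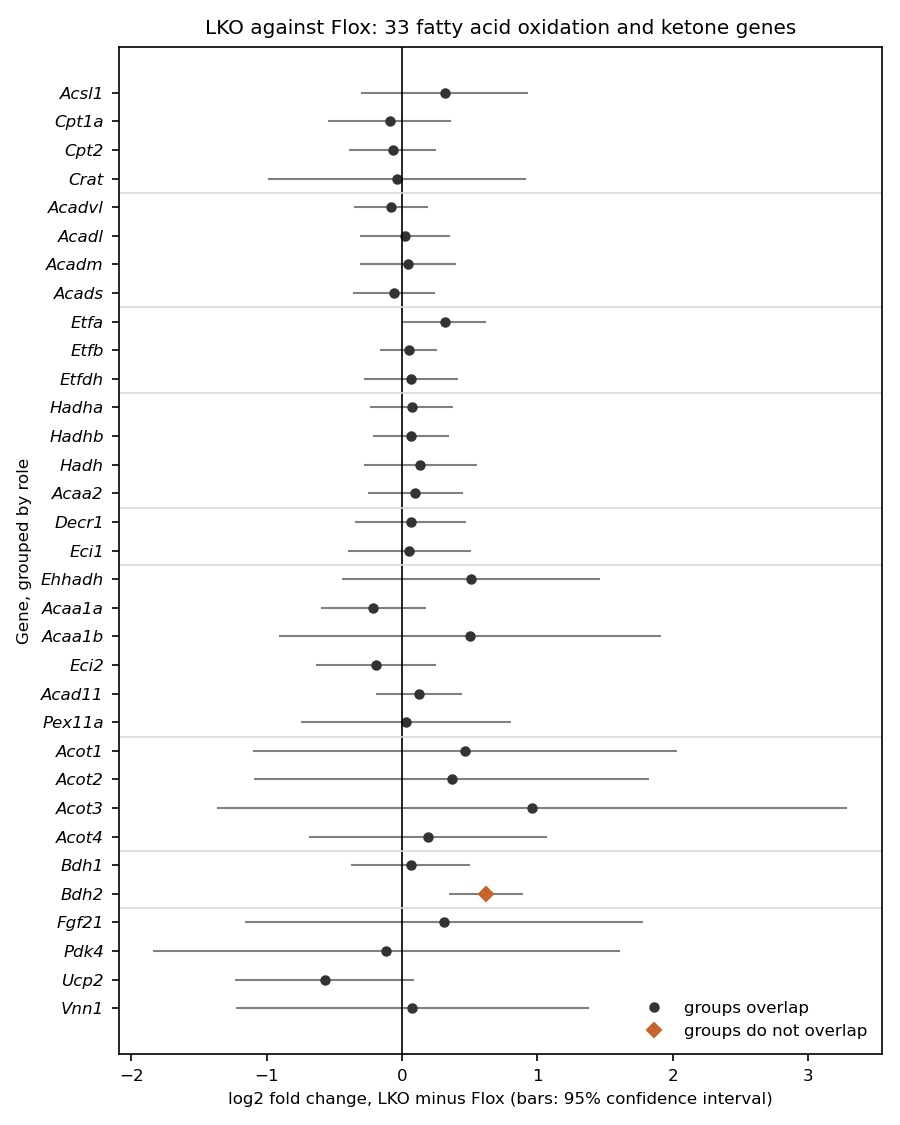
Log2 fold change (LKO minus Flox) of the 33 genes, grouped by role, with 95% confidence intervals from the edgeR fit. Bdh2, at 0.62, is the member whose groups do not overlap, and its interval (0.35 to 0.89) lies above 0. The interval of Etfa (0.01 to 0.62) also lies above 0, and Acot3 has the widest interval, from -1.37 to 3.29.

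Acsl1 joins long-chain fatty acids to coenzyme A. Its level in Flox was 1116, 449, 492, 400 and 845 CPM for livers 1 to 5, and in LKO 1129, 697, 681, 804 and 798 CPM. The groups overlapped because Flox 1 and Flox 5 were as high as LKO livers, and the log2 fold change was 0.32 ± 0.28 (SE, edgeR adjusted p = 0.756). Cpt1a, the carnitine palmitoyltransferase of the outer membrane that sets the rate of entry, measured 271 ± 56.7 CPM in the controls against 254 ± 82.6 CPM in the deleted livers (SD, n = 5 each). Its value of 400 CPM in LKO 5 stood above the 201 to 232 CPM of the other LKO livers. Cpt2, which hands the acyl group back to coenzyme A inside the mitochondrion, measured 144, 115, 153, 102 and 141 CPM in Flox and 157, 102, 106, 119 and 140 CPM in LKO. Its 2 ranges nearly coincided, with a log2 fold change of -0.07 ± 0.15 (SE, edgeR adjusted p = 0.902). Crat, which exchanges short acyl groups between carnitine and coenzyme A, ran from 28.2 to 97.2 CPM in Flox and from 29.9 to 89.1 CPM in LKO.

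The acyl-CoA dehydrogenases take the first step of each turn and differ in the chain length they prefer. Acadvl, for very long chains, measured 134, 175, 155, 110 and 141 CPM in Flox and 151, 134, 121, 126 and 143 CPM in LKO, with a log2 fold change of -0.08 ± 0.12 (SE, edgeR adjusted p = 0.859). All 5 LKO values lay inside the Flox range. Acads, for short chains, measured 141, 153, 152, 121 and 176 CPM in Flox and 168, 128, 131, 115 and 172 CPM in LKO, a log2 fold change of -0.06 ± 0.14 (SE, edgeR adjusted p = 0.914). Acadm, for medium chains, measured 263 ± 56.1 against 271 ± 39.7 CPM, and Acadl, for long chains, 177 ± 34.3 against 179 ± 28.2 CPM (SD, n = 5 each, Flox first). For these 4 enzymes the confidence limits of the difference lay between -0.36 and 0.40 on the log2 scale.

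Electrons from the acyl-CoA dehydrogenases pass to the electron transfer flavoprotein, made of an alpha subunit (Etfa) and a beta subunit (Etfb), and on to its ubiquinone oxidoreductase (Etfdh). Etfa (ENSMUSG00000032314, chr9:55454508-55512243, GRCm38, minus strand) measured 245, 202, 170, 183 and 268 CPM in Flox and 312, 259, 233, 247 and 276 CPM in LKO. Flox 1 and Flox 5 lay within the LKO range, while Flox 2, Flox 3 and Flox 4 lay below every LKO liver. The means were 213 ± 41.5 and 265 ± 30.4 CPM (SD, n = 5 each). The log2 fold change was 0.31 ± 0.14 (SE, unadjusted p = 0.0460, adjusted p = 0.652, edgeR). With 1 library left out at a time, the unadjusted edgeR p of Etfa ranged from 0.0112 to 0.118, and it was above 0.05 without Flox 2, Flox 3, Flox 4, LKO 1, LKO 2, LKO 4 or LKO 5.

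The values of the partner subunit lay close together. Etfb measured 28.2, 30.7, 33.6, 27.4 and 28.9 CPM in Flox and 30.2, 29.1, 28.3, 37.0 and 29.3 CPM in LKO, a log2 fold change of 0.05 ± 0.10 (SE, edgeR adjusted p = 0.896). It was the member with the smallest spread within groups, an SD of 0.14 on the log2 scale, and LKO 4 stood above the other 9 livers. Etfdh had means of 198 ± 41.5 and 208 ± 28.3 CPM, with Flox 4 lowest at 127 CPM.

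The later steps of the mitochondrial turn are run by the trifunctional protein on long chains (Hadha and Hadhb), by Hadh, a hydroxyacyl-CoA dehydrogenase for shorter chains, and by the thiolase Acaa2. Hadh measured 368, 212, 288, 247 and 362 CPM in Flox and 385, 296, 254, 264 and 422 CPM in LKO, a log2 fold change of 0.13 ± 0.19 (SE, edgeR adjusted p = 0.847). Acaa2 measured 798, 618, 601, 612 and 864 CPM in Flox and 909, 697, 656, 604 and 874 CPM in LKO, a log2 fold change of 0.10 ± 0.16 (SE, edgeR adjusted p = 0.869). For both, livers 1 and 5 of each group were the 4 highest. Hadha and Hadhb, which encode the 2 subunits of 1 complex from neighbouring genes on chr5, measured 350 ± 57.2 against 368 ± 50.3 CPM and 96.1 ± 15.6 against 100 ± 12.2 CPM, with the same 4 livers highest for each. The enzymes that prepare unsaturated chains had those 4 livers highest as well. Decr1, a dienoyl-CoA reductase, measured 157, 120, 152, 88.5 and 160 CPM in Flox and 172, 136, 98.9, 132 and 169 CPM in LKO. Eci1, an enoyl-CoA isomerase, measured 132, 93.3, 118, 68.5 and 135 CPM in Flox and 144, 108, 91.0, 84.5 and 140 CPM in LKO. Their log2 fold changes were 0.06 ± 0.19 and 0.05 ± 0.21 (SE, edgeR adjusted p = 0.932 and 0.947).

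Among the peroxisomal genes, Ehhadh, the bifunctional hydratase and dehydrogenase, measured 325, 76.6, 97.7, 107 and 301 CPM in Flox and 380, 238, 218, 176 and 280 CPM in LKO. Flox 2, Flox 3 and Flox 4 lay below every LKO liver, and Flox 1 and Flox 5 were above all LKO livers except LKO 1. The log2 fold change was 0.51 ± 0.43 (SE, edgeR adjusted p = 0.748). Eci2, a peroxisomal enoyl-CoA isomerase, ran from 59.5 to 132 CPM in Flox and from 56.6 to 103 CPM in LKO. Acad11, an acyl-CoA dehydrogenase, measured 192 ± 31.5 against 210 ± 34.9 CPM (SD, n = 5 each). Pex11a, which takes part in peroxisome division, ran from 28.9 to 82.8 CPM in Flox and from 35.9 to 94.5 CPM in LKO.

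The mouse has 2 copies of the peroxisomal thiolase, Acaa1a (chr9:119339676-119350299, plus strand) and Acaa1b (chr9:119148023-119157093, minus strand, both GRCm38). Acaa1a measured 235, 198, 260, 146 and 230 CPM in Flox and 193, 194, 159, 136 and 242 CPM in LKO, a log2 fold change of -0.21 ± 0.18 (SE, edgeR adjusted p = 0.748). Acaa1b measured 1212, 198, 208, 210 and 1271 CPM in Flox and 1316, 727, 552, 556 and 1232 CPM in LKO, a log2 fold change of 0.50 ± 0.63 (SE, edgeR adjusted p = 0.829). The highest library exceeded the lowest by 1.91-fold for Acaa1a and by 6.65-fold for Acaa1b. The ratio of the 2 copies, Acaa1b over Acaa1a, was 5.16, 0.998, 0.799, 1.44 and 5.52 in Flox and 6.82, 3.75, 3.47, 4.08 and 5.09 in LKO, so Flox 2, Flox 3 and Flox 4 lay below the other 7 livers. Acaa1b and the 3 members that follow it in depth, Pdk4, Vnn1 and Crat, were chosen for description after their values were seen.

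The 2 thiolase copies are close enough that their reads could be exchanged. Of all 50-base words in the GENCODE transcripts of Acaa1b, 39.6% also occurred in another gene, 30.5% in Acaa1a, and of those of Acaa1a 17.1% occurred elsewhere, 12.4% in Acaa1b. The sources used here do not say how such reads were counted, so the level of each copy is uncertain by what was lost or exchanged.

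**Figure D2:**
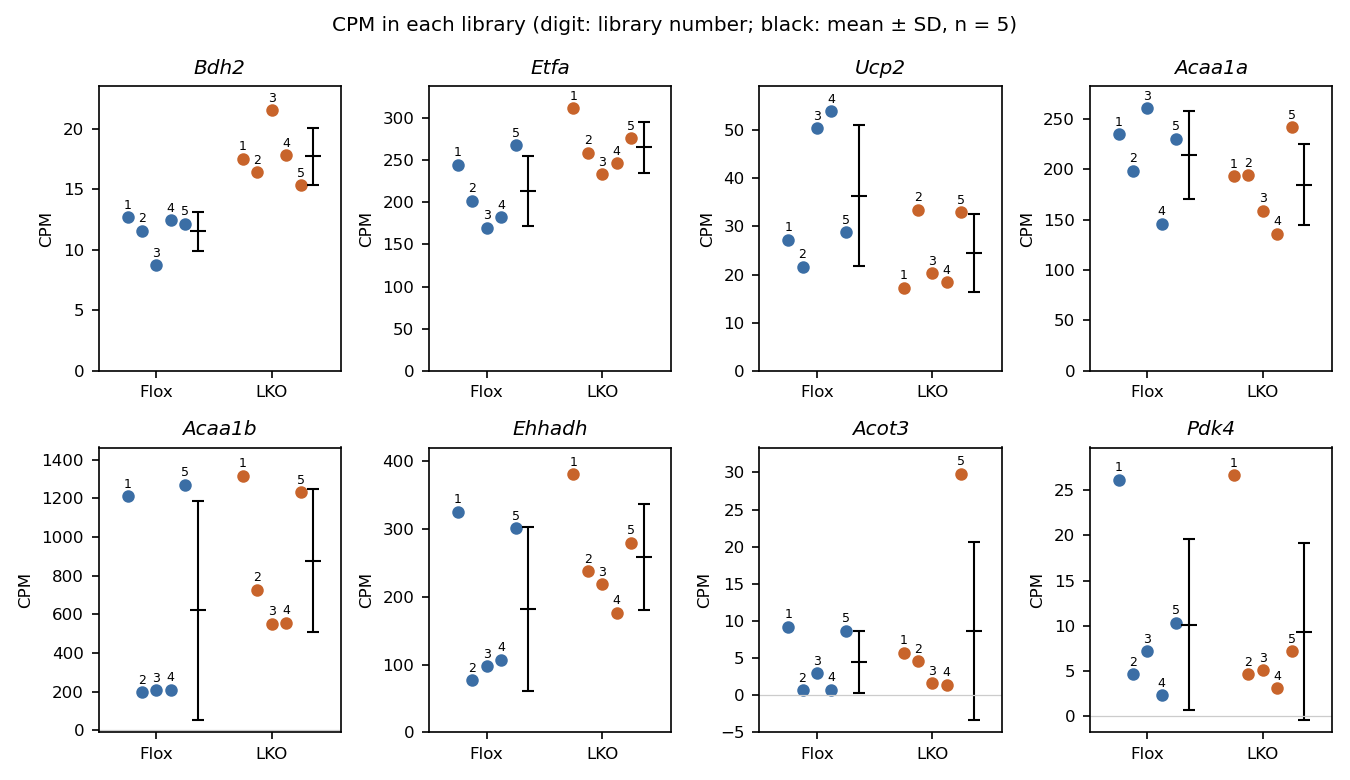
CPM of 8 of the genes in each library. Digits are library numbers, blue is Flox, orange is LKO, and black bars are the mean ± SD of 5 livers. For Bdh2 all orange points lie above all blue ones. For Acaa1b and Ehhadh, Flox 1 and Flox 5 sit with the LKO livers and the other Flox livers lie below them, and for Acot3 the LKO mean is set by LKO 5 at 29.8 CPM.

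The acyl-CoA thioesterases split acyl-CoA into free fatty acid and coenzyme A. Acot1 acts in the cytosol, Acot2 in the mitochondrion, and Acot3 and Acot4 in the peroxisome, and their genes lie side by side on the plus strand of chr12 in the order Acot2 (from 83987861), Acot1, Acot4 and Acot3 (to 84060402, GRCm38). Acot1 measured 21.5, 4.19, 9.15, 2.02 and 15.3 CPM in Flox and 34.7, 8.28, 6.96, 6.06 and 15.9 CPM in LKO, a log2 fold change of 0.46 ± 0.70 (SE, edgeR adjusted p = 0.856). Its LKO mean of 14.4 CPM dropped to 9.29 CPM without LKO 1. Acot3 measured 9.21, 0.648, 2.97, 0.733 and 8.66 CPM in Flox and 5.72, 4.58, 1.59, 1.41 and 29.8 CPM in LKO, a log2 fold change of 0.96 ± 1.03 (SE, edgeR adjusted p = 0.796). Its LKO mean of 8.62 CPM was 3.33 CPM without LKO 5, below the Flox mean of 4.44 CPM. The lowest and the highest library of Acot3 differed 46.0-fold, the widest range of any member.

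Acot2 ran from 1.87 to 11.9 CPM in Flox and from 2.88 to 15.7 CPM in LKO, and Acot4 from 20.8 to 56.7 and from 25.7 to 81.6 CPM. For all 4 thioesterases the 4 highest livers were Flox 1, Flox 5, LKO 1 and LKO 5. The part of shared reads in this likeness was not tested. Acot1 and Acot2 have 273 coding bases in common without a mismatch, coding bases 887 to 1159 of 1257 in Acot1-201 and 1010 to 1282 of 1359 in Acot2-201, from the GENCODE transcripts and shown as the longest of the stretches where a read fits both genes.
Acot1 and Acot2 shared coding run: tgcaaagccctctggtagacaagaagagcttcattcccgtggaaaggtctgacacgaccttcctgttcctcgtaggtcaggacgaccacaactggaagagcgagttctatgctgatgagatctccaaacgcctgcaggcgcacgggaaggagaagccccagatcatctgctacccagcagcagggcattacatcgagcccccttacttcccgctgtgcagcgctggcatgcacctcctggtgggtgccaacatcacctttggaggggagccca
The share of 50-base words found in another gene was 27.7% for Acot2, 21.3% for Acot3, 19.2% for Acot1 and 13.4% for Acot4. Over the whole set this share was above 20% for 5 members, which were Etfb, Acaa1b, Acot2, Acadvl and Acot3, and under 5% for 20 members. Etfb shared 43.8% with the annotated gene Gm45233 and Acadvl 26.9% with Dvl2, matched on either strand.

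The ketone body dehydrogenases comprised 1 member with coinciding groups and 1 with separate groups. Bdh1, the mitochondrial enzyme that interconverts acetoacetate and beta-hydroxybutyrate, measured 232, 179, 196, 138 and 265 CPM in Flox and 231, 206, 172, 155 and 291 CPM in LKO, a log2 fold change of 0.06 ± 0.20 (SE, edgeR adjusted p = 0.938). Bdh2 (ENSMUSG00000028167, chr3:135281221-135304426, GRCm38, plus strand), a cytosolic dehydrogenase named for the same reaction, measured 12.7, 11.6, 8.73, 12.4 and 12.2 CPM in Flox and 17.5, 16.4, 21.6, 17.8 and 15.3 CPM in LKO. The lowest LKO liver lay above the highest Flox liver. The means were 11.5 ± 1.61 and 17.7 ± 2.35 CPM (SD, n = 5 each), from 400 to 713 counts per Flox liver and 759 to 1019 per LKO liver. The fold change was 1.54, with a 95% confidence interval of 1.27 to 1.86, and the log2 fold change was 0.62 ± 0.13 (SE, unadjusted p = 0.000324, adjusted p = 0.652, edgeR).

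The adjusted p of Bdh2 depended on the tool. It was 0.0259 by DESeq2 on the genes that edgeR tested, of which 6953 received an adjusted p. Without the low-count filter DESeq2 gave 0.0510. Leaving out 1 library at a time kept the log2 fold change between 0.54 and 0.67, and leaving out both Flox 2 and Flox 3 gave 0.51. No 50-base word of Bdh2 transcripts occurred in another gene. Per kilobase of annotated exon, Bdh2 was a minor transcript beside Bdh1: the Flox means were 2.71 ± 0.380 and 51.9 ± 12.5 CPM per kb (SD, n = 5), and in LKO Bdh2 measured 4.17 ± 0.552 CPM per kb.

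Of the genes that respond to fasting, Fgf21 encodes a hormone that liver secretes, Pdk4 a kinase that holds back pyruvate dehydrogenase, Vnn1 a pantetheinase, and Ucp2 a carrier of the inner mitochondrial membrane. Fgf21 was low in all livers, at 0.896, 0.405, 1.51, 0.366 and 1.92 CPM in Flox and 1.11, 0.359, 0.339, 1.17 and 3.29 CPM in LKO (16 to 176 counts), a log2 fold change of 0.31 ± 0.67 (SE, edgeR adjusted p = 0.905). Its LKO mean of 1.25 CPM was 0.745 CPM without LKO 5. Pdk4 stood apart in 1 liver of each group, Flox 1 with 26.2 CPM and LKO 1 with 26.7 CPM, against 2.25 to 10.3 CPM in the other 8. Without those livers the Pdk4 means of 10.1 and 9.33 CPM became 6.08 CPM for Flox and 4.98 CPM for LKO. Vnn1 ran from 10.2 to 67.7 CPM in Flox and from 19.9 to 81.3 CPM in LKO.

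Ucp2 (chr7:100493337-100502020, GRCm38, plus strand) was the member with the lowest log2 fold change, -0.57 ± 0.30 (SE, unadjusted p = 0.0817, adjusted p = 0.656, edgeR). Its levels were 27.3, 21.6, 50.4, 53.9 and 28.9 CPM in Flox and 17.3, 33.4, 20.3, 18.4 and 32.9 CPM in LKO. Flox 3 and Flox 4 stood above every other liver and the remaining 8 overlapped. Ucp2 is known to be expressed in macrophages, Kupffer cells included. The 11 Kupffer cell markers, of which all were tested and 0 were at 0 in every library, had lower means in LKO for 11 of 11, none with an unadjusted edgeR p under 0.05, and their summed level was 126 to 701 CPM in Flox and 83.7 to 557 CPM in LKO. Their mean log2 CPM was 3.67, 4.18, 3.83, 5.23 and 2.25 in Flox and 1.96, 4.86, 3.81, 3.52 and 2.89 in LKO. Flox 4 and LKO 2 were the highest and LKO 1 the lowest. The order of the livers was not that of Ucp2 throughout: Flox 2 was above Flox 3 for the markers and below it for Ucp2. The part of these cells in the Ucp2 values was not tested.

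Per kilobase of exon, the most abundant members in Flox livers were Acaa2 (461 ± 81.3 CPM per kb), Acaa1b (316 ± 289), Etfa (116 ± 22.6), Acadl (88.1 ± 17.1) and Acadm (67.2 ± 14.3; SD, n = 5 for each). The ranges of mean ± SD overlap for each pair of neighbours in this order. That of Acaa1b, the widest, overlaps the ranges of all the others named. Both genes of a pair were measured in the same livers, so this overlap does not decide their order. The least abundant were Fgf21 (1.07 ± 0.718 CPM per kb), Acot3 (1.29 ± 1.22), Acot1 (2.66 ± 2.04), Bdh2 (2.71 ± 0.380) and Pdk4 (2.88 ± 2.70), and these neighbours overlapped too. Etfa exceeded its partner Etfb, at 25.6 ± 2.11 CPM per kb, although the 2 subunits occur in equal number in the protein. Since 44.8% of the 50-base words of Etfb occur in other genes and the handling of such reads is not stated, the level of Etfb is uncertain.

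Livers of the same group differed widely in these genes. The SD of log2 CPM within groups had a median of 0.36 over the 33 members and 0.29 over all genes tested, and 18 members had a highest library more than 2-fold above the lowest. For 17 of the 33 members the 4 highest livers were Flox 1, Flox 5, LKO 1 and LKO 5, that is 51.5%, beside 3.98% of all 15894 genes tested. This set of livers was noticed in these data, so its frequency is a description and was given no test. It held for 8 of 17 mitochondrial enzymes (Crat, Acadl, Hadha, Hadhb, Hadh, Acaa2, Decr1 and Eci1), 3 of 6 peroxisomal genes (Ehhadh, Acaa1b and Acad11), all 4 thioesterases, Bdh1 among the ketone body enzymes and Pdk4 among the regulators. Bdh2 did not have it, and neither did the 3 genes of the flavoprotein route.

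Relative to each gene's mean over the 10 livers, the median deviation of the members was 0.21, -0.22, 0.04, -0.54 and 0.27 on the log2 scale in Flox 1 to 5, and 0.35, -0.03, -0.25, -0.14 and 0.30 in LKO 1 to 5. Flox 4 held the lowest value for 20 members, and LKO 1 and LKO 5 the highest for 15 and 10. Over all genes tested the same median deviation lay between -0.01 and 0.02 in every library. TMM scaling brings this median close to 0, so it does not measure how unusual the members are. High and low livers for these genes were thus present in both genotypes.

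**Figure D3:**
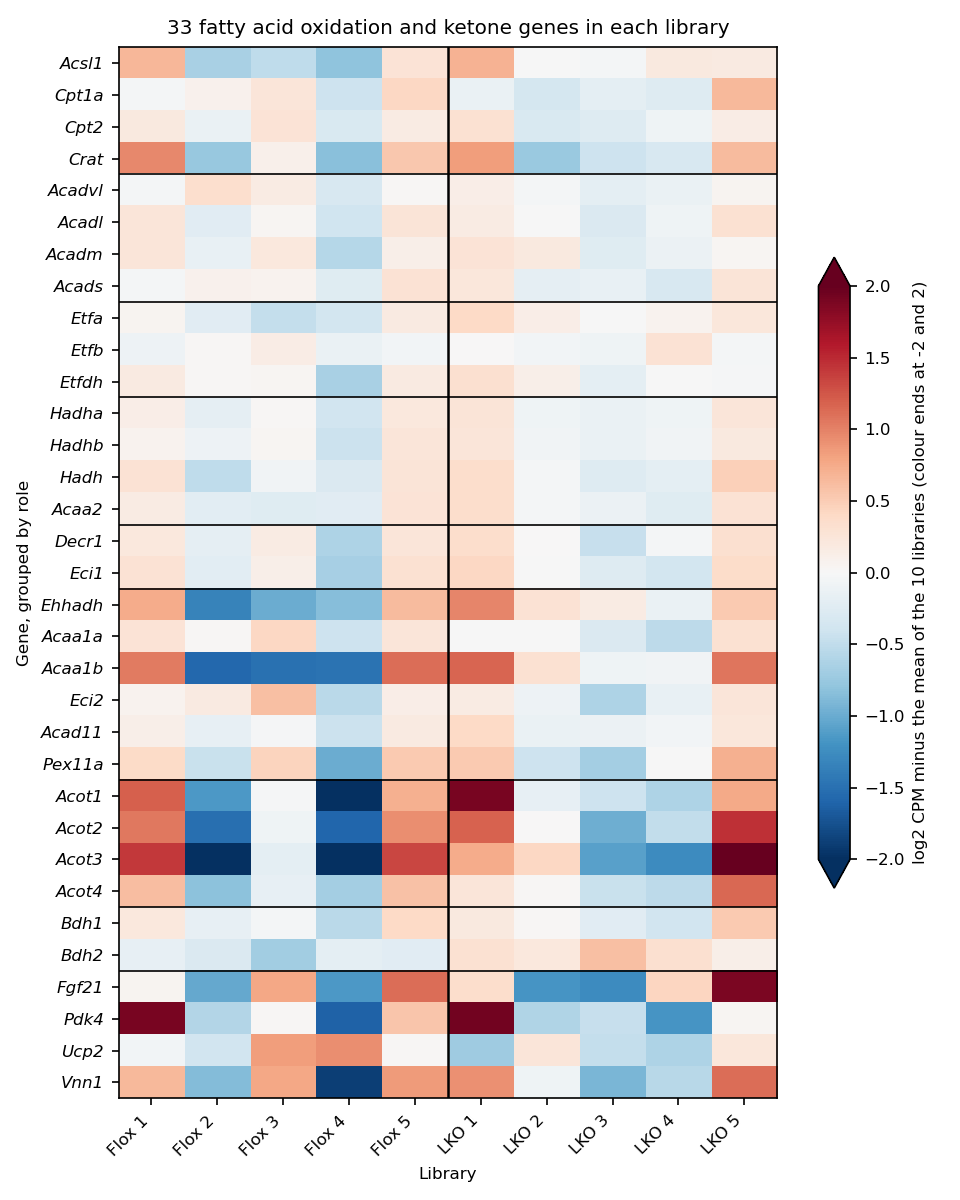
Log2 CPM of the 33 genes in each library, minus the gene's mean over the 10 libraries, with genes grouped by role and a line between Flox and LKO. Columns Flox 1, Flox 5, LKO 1 and LKO 5 are red for most rows and Flox 4 is blue for most rows, with the strongest colours at Acot3, Acot1, Pdk4, Fgf21 and Vnn1. Bdh2 has its own pattern, red in all LKO columns.

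Other genes of the pathway were taken from 5 lists with 110 tested genes, and none had an adjusted p under 0.05 (edgeR). Of 30 other mitochondrial genes, 21 were higher and 9 lower in LKO (median 0.06), 2 of them with an unadjusted p under 0.05. These were Hibch, of valine breakdown, with means of 53.7 ± 7.66 and 64.1 ± 5.21 CPM (log2 fold change 0.26 ± 0.11 SE, unadjusted p = 0.0348, adjusted p = 0.652, edgeR), and Acsl4, which activates arachidonic acid, at 37.6 ± 12.3 against 54.5 ± 11.8 CPM (0.54 ± 0.24 SE, unadjusted p = 0.0471, adjusted p = 0.652, edgeR). Acadsb, the short and branched chain dehydrogenase, came next with a log2 fold change of 0.26 ± 0.13 (SE, unadjusted p = 0.0633, adjusted p = 0.652, edgeR). Of 28 other peroxisomal genes, 18 were higher and 10 lower (median 0.04), 0 with an unadjusted p under 0.05. The smallest p there belonged to Acot6, Nudt19 and Pecr, with log2 fold changes of 0.69, 0.20 and 0.15.

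Of 10 other ketone body genes, 6 were higher and 4 lower (median 0.07), 0 with an unadjusted edgeR p under 0.05. The smallest p in that list belonged to the transporter Slc16a6 (log2 fold change -0.57 ± 0.30), to Aacs, which uses acetoacetate for lipid synthesis (0.77 ± 0.55), and to the transporter Slc16a7 (0.30 ± 0.30). Of the 10 genes, 6 had Flox 1, Flox 5, LKO 1 and LKO 5 as the 4 highest livers, among them Acat1, the mitochondrial acetoacetyl-CoA thiolase.

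PPARA and its partners (20 genes) had 12 higher and 8 lower, 0 with an unadjusted edgeR p under 0.05 and a median of 0.09. Ppara measured 62.9 ± 24.8 CPM in Flox and 67.6 ± 24.0 CPM in LKO, and the smallest p belonged to Ncoa1, Creb3l3 and Rxra, with log2 fold changes of 0.19, -0.27 and -0.20. In this list 1 gene, Pparg, had the 4 livers named above as its highest. Of 22 other PPARA target genes, 13 were higher and 9 lower (median 0.12), 0 with an unadjusted p under 0.05, led by Lpl at 18.3 ± 8.66 against 41.9 ± 29.1 CPM (log2 fold change 1.19 ± 0.54 SE, unadjusted p = 0.0514, adjusted p = 0.652, edgeR), Tmem120a (-0.24 ± 0.13) and Angptl4 (-0.49 ± 0.32). Of these targets 11 of 22 had the same 4 livers highest, among them Cyp4a10, Cyp4a14, Fabp1 and Cd36. Cyp4a14, a fatty acid hydroxylase, ran from 14.9 CPM in Flox 2 to 670 CPM in LKO 1. Over all 5 lists it was 36 of 110 genes, or 32.7%.

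The sequence bound by PPARA with RXR is a direct repeat of AGGTCA with 1 base between, and it was searched as AGGTCANAGGTCA on both strands, from 250 bases before to 50 after the start of each gene in the RefSeq promoter table of GRCm38.p6. Of the 33 members 29 had an entry. No member had an exact match or a match with 1 mismatch, where 0.0481% and 0.644% of 27025 genes had them. With shares this low, finding none among 29 genes is likely for any set, so it does not set the members apart. With up to 2 mismatches 2 of 29 members matched, Acot4 and Etfa, beside 4.40% of all genes, and with up to 3 it was 8 of 29, or 27.6%, beside 27.3%. The members were thus near the background of the same search, which did not look at sites outside these windows. The 2 matches are shown within the 250 bases before the start site, with the matched bases in capitals, both on the strand opposite the gene.
Acot4 upstream window (chr12:84038129-84038378, plus strand): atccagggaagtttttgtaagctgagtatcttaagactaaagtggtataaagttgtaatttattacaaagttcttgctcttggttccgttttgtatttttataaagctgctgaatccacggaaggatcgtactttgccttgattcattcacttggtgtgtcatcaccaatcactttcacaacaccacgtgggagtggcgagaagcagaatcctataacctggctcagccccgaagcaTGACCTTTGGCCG
Etfa upstream window (chr9:55512244-55512493, minus strand): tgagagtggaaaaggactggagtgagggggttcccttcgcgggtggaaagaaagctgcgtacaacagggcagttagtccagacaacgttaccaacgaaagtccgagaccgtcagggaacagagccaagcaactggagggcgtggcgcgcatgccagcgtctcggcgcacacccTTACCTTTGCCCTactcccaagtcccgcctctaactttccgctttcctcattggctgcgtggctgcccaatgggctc
The match ran from base -13 to -1 before the start of Acot4 and from -77 to -65 before that of Etfa.

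Levels of other gene lists differed between the same livers. The mean log2 CPM of 20 acute phase genes, made by liver in inflammation, was 8.37, 11.03, 11.82, 10.23 and 7.78 in Flox and 7.69, 9.48, 8.79, 8.39 and 8.11 in LKO, and 20 of 20 had a lower mean in LKO, 15 with an unadjusted edgeR p under 0.05. The lowest values were those of LKO 1, Flox 5 and LKO 5, and Flox 2, Flox 3 and Flox 4 were the highest. Without Flox 2 and Flox 3, the 2 livers with the highest acute phase values, the log2 fold change of Acaa1b was -0.03 instead of 0.50, that of Ehhadh 0.08 instead of 0.51, and that of Acsl1 0.07 instead of 0.32. These livers were also among the lowest Flox livers for those 3 genes, so leaving them out had to lower the differences. Etfa then had a log2 fold change of 0.20 instead of 0.31 (unadjusted p = 0.204, adjusted p = 0.999, edgeR). For Etfa too, Flox 2 and Flox 3 lay below every LKO liver, so its difference also had to shrink. Fewer Flox livers were then left for the test. The part of the acute phase state in the members' levels was not tested.

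The adipocyte list (9 genes, 4 tested) had its highest mean log2 CPM in Flox 1, Flox 5, LKO 1 and LKO 5. This mean was 2.86, -1.07, -0.47, -0.99 and 3.06 in Flox and 2.83, 1.64, 1.15, 1.12 and 3.21 in LKO. The summed level of the list was 3.87 to 93.3 CPM in Flox and 9.56 to 129 CPM in LKO. In LKO 1, where the summed level was 129 CPM, 116 CPM came from Cidea, a lipid droplet protein that is also on the list of PPARA targets. Cfd (adipsin) was also highest in Flox 1, Flox 5, LKO 1 and LKO 5, at 10.6, 6.89, 8.87 and 11.0 CPM against 0.174 to 2.07 CPM in the other livers. Retn, below the filter, had its highest values there too, at 0.448, 0.219, 0.621 and 0.187 CPM against 0 to 0.127 CPM. Of the other markers below the filter, Ucp1 had no count in any library, and Adipoq, Lep and Plin1 had at most 7, 3 and 4 counts. The remaining tested genes of the list, Pnpla3 and Adrb3, did not have those 4 livers highest. Pnpla3 was higher in LKO 4 (2.82 CPM) than in Flox 1 (1.56 CPM). Adrb3 was highest in Flox 2 (3.02 CPM) and measured 0.954 CPM in LKO 1. The part of fat cells in the members' levels was not tested. Of 9 muscle markers 1 was tested, and their summed level did not exceed 0.867 CPM. The 9 red cell genes tested had higher means in LKO for 9 of 9 (7 with an unadjusted edgeR p under 0.05). Their summed level was 297, 240, 360, 414 and 235 CPM in Flox and 484, 628, 902, 533 and 463 CPM in LKO. LKO 3, where Bdh2 was highest, had the most. Flox 3, where Bdh2 was lowest, had more than Flox 1, Flox 2 and Flox 5. Other lists differed between the groups as well. The summed hepatocyte markers did not overlap, with every LKO liver above every Flox liver, as for Alb alone (35269 to 93497 CPM in Flox, 99575 to 122618 CPM in LKO). Alb made up the largest part of that sum. The mean log2 CPM of the 14 hepatocyte markers did overlap, at 10.69 to 11.49 in Flox and 11.23 to 11.46 in LKO. Of these markers 10 had higher and 4 had lower means in LKO. The 12 T and NK cell markers had lower means in LKO for 11 of 12, 6 with an unadjusted edgeR p under 0.05, and a summed level of 5.55 to 14.4 CPM in Flox and 2.75 to 6.81 CPM in LKO. The part of these cells in the Bdh2 values was not tested. Clock genes, whose phases oppose each other, differed between livers of both groups. Dbp measured 0.798, 1.68, 1.97 and 3.13 CPM in Flox 1, Flox 2, Flox 3 and LKO 1, and 34.5 to 111 CPM in the other 6 livers. Arntl ran the other way, at 24.7, 22.0, 18.5, 3.96 and 3.01 CPM in Flox and 21.6, 11.1, 9.84, 7.56 and 1.53 CPM in LKO. Among the 4 livers in which the members were most often highest, Dbp was low in Flox 1 and LKO 1 and high in Flox 5 and LKO 5. The part of clock phase in the members' levels was not tested, and the sources used here give neither feeding state nor time of day at collection.

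**Figure D4:**
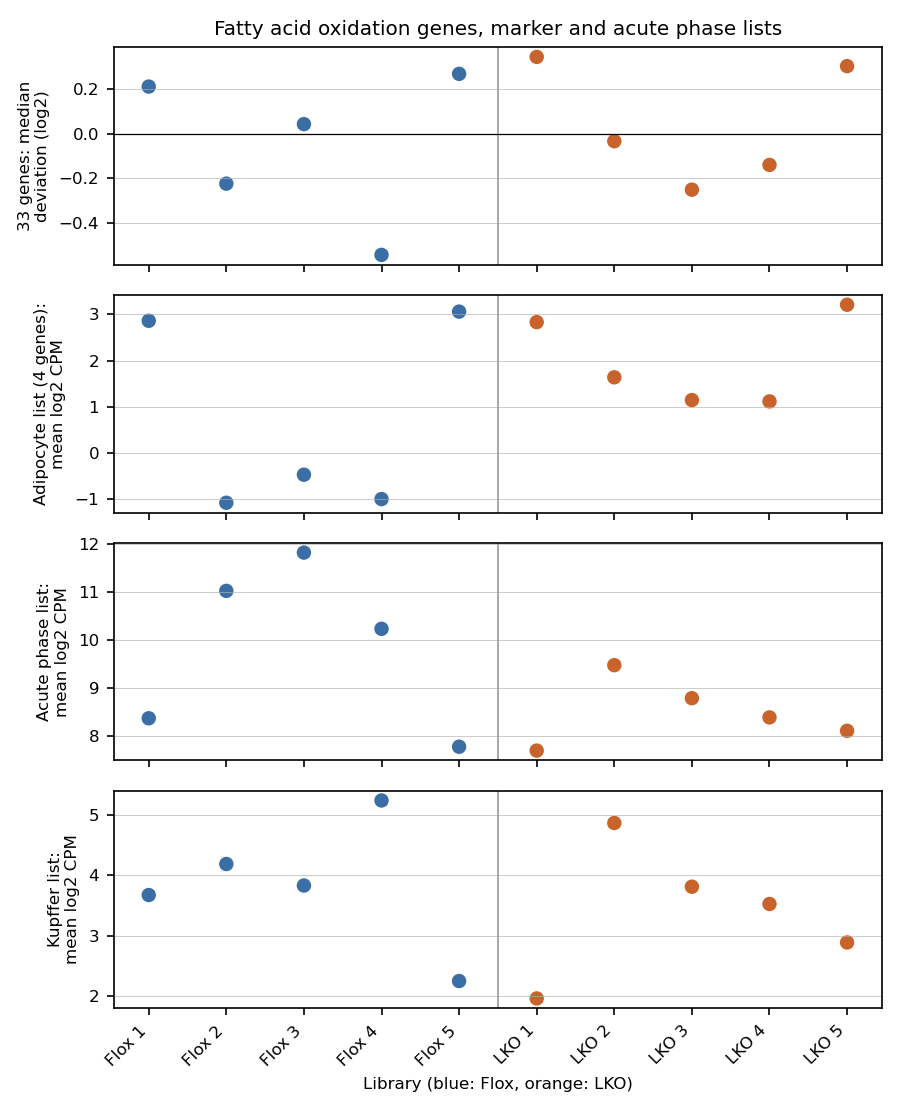
By library, from top to bottom: the median deviation of the 33 genes (log2), and the mean log2 CPM of the adipocyte, acute phase and Kupffer cell lists, with Flox in blue and LKO in orange. Flox 1, Flox 5, LKO 1 and LKO 5 are the 4 highest livers in the top 2 panels, and Flox 2, Flox 3 and Flox 4 are the highest in the acute phase panel.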

How the data were processed

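Oligo-dT primed or selected RNA from 10 liver libraries (5 Flox, 5 LKO) was measured. The table deposited by the authors holds raw read counts per Ensembl gene. Per the submitters' processing notes, the tools used included STAR 2.5.1a and featureCounts 1.4.6-p5, with build GRCm38. The sources used here state neither the strand setting nor what was done with reads that hit several places. LKO columns are numbered 1 to 5 but LKO titles are not, so LKO libraries are called by column number, without a link to a title. After 287 repeated identifiers were dropped, genes were kept with filterByExpr, scaled by TMM (factors 0.963 to 1.04) and tested without covariates by edgeR's quasi-likelihood F test (4.0.16, robust, R 4.3.3), two-sided, with Benjamini-Hochberg adjustment at 0.05. A count of 0 allows up to 3 counts, 0.0546 to 0.0692 CPM per library, for counting error only. Log2 CPM used a prior count of 2. SEs come from the F statistic and intervals (95%) from the t distribution. No pair of the 45 library pairs agreed within sampling noise (chi-square per gene 37.0 to 687). In simulated data for this comparison (15640 genes) the test recovered 6 of 50 genes changed 1.5-fold, 26 of 50 changed 2-fold, 33 of 48 changed 3-fold and 39 of 45 changed 4-fold. It also called 10 genes that had not been changed, and 1 gene in simulated data without any change. Each gene was simulated on its own, without differences between livers that many genes share. DESeq2 1.42.0, limma-voom 3.58.1, other scalings, no filter, leaving out libraries and the column number as a block were alternatives. Exon lengths and transcripts are from GENCODE M21, where 55227 of 55487 identifiers matched. Members and lists were chosen with earlier results of these data known. Values per library are given for members with an unadjusted p under 0.05 or groups that do not overlap and for the 2 members of each role with the smallest p; from the other pathway lists, up to 3 genes with the smallest p. Protein sequences were not used here.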

Additional observations from a re-analysis of the deposited data

Results flagged for a closer look

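In 4 of 66 groups of 5 libraries (33 genes in Flox and in LKO), the most extreme library stood off from the others by a gap that, divided by the range of the group, exceeded Dixon's critical value of 0.71. Chance gives about 1 in 20 such groups. Cpt1a in LKO had its highest value in LKO 5 (ratio 0.792), at 400 CPM against 201 to 232 CPM. Etfb in LKO had its highest value in LKO 4 (ratio 0.760), at 37.0 CPM against 28.3 to 30.2 CPM. Etfdh in Flox had its lowest value in Flox 4 (ratio 0.801), at 127 CPM against 203 to 228 CPM. Bdh2 in Flox had its lowest value in Flox 3 (ratio 0.753), at 8.73 CPM against 11.6 to 12.7 CPM, and without Flox 3 its log2 fold change was 0.54 instead of 0.62.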

How the results depend on the processing

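Genes with an unadjusted edgeR p under 0.05 numbered 1193, 2043 without a filter, 517 without Flox 2 and Flox 3 and 575 to 1885 with 1 library left out. Genes past an adjusted p of 0.05 numbered 10 by DESeq2, 6 by DESeq2 without prior filter and 0 otherwise; of the members, 1 (Bdh2) passed by DESeq2 and 0 in every other fit run. Members with an unadjusted p under 0.05 numbered 1 with library totals, 1 by limma-voom, 1 without Flox 2 and Flox 3, and 1 to 3 with 1 library left out. Members with a higher mean in LKO numbered 14 to 27, and their median log2 fold change was -0.05 to 0.14, with 1 library left out. Signs turned with library totals for Acadl (-0.014) and Pex11a (-0.0070), by limma-voom for Acadl (-0.013), Pex11a (-0.061) and Fgf21 (-0.20), and without Flox 2 and Flox 3 for Acadvl (0.075), Acadl (-0.039), Hadh (-0.0057), Acaa2 (-0.018), Acaa1b (-0.029), Eci2 (0.022), Acot4 (-0.061) and Bdh1 (-0.0042); the cause was not tested. With 1 library left out the sign turned for 20 of 33 members: Acadl (-0.064 to 0.095), Acadm (-0.071 to 0.11), Acads (-0.13 to 0.013), Acadvl (-0.16 to 0.0038), Acot1 (-0.17 to 0.92), Acot3 (-0.40 to 1.41), Acot4 (-0.16 to 0.38), Bdh1 (-0.074 to 0.18), Cpt1a (-0.31 to 0.0048), Crat (-0.28 to 0.25), Decr1 (-0.057 to 0.17), Eci1 (-0.076 to 0.14), Etfb (-0.026 to 0.097), Etfdh (-0.057 to 0.13), Fgf21 (-0.44 to 0.67), Hadha (-0.0062 to 0.14), Hadhb (-0.022 to 0.14), Pdk4 (-1.02 to 0.63), Pex11a (-0.16 to 0.18) and Vnn1 (-0.21 to 0.29). Leaving out Flox 2 and Flox 3, the column number block and DESeq2 without prior filter were added after the data were seen. The labels share no replicate numbers between groups, so the numbers were not taken to pair livers. With the column number as a replicate block, 5 members had an unadjusted edgeR p under 0.05 (Acsl1, Etfa, Ehhadh, Acaa1b and Bdh2) and 0 an adjusted one. Same-numbered libraries deviated together with correlations of 0.354, 0.0891, 0.0736, 0.0988 and 0.288 for numbers 1 to 5. The LKO library most like Flox 1 was LKO 1, and that most like Flox 5 was LKO 5. For Flox 2, Flox 3 and Flox 4 it bore another number. Whether the numbers link livers of the 2 groups was not tested. With a median SE of 0.185 on the log2 scale, a 1.5-fold change would mostly be missed here.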
